A study of Caenorhabditis elegans with 93 samples.

Results

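Lineage B is 1 of 3 mutation accumulation lines, A, B and C, of the C. elegans laboratory strain N2, each founded from 2 hermaphrodites and propagated by picking 2 hermaphrodites per generation. The chromatin of its embryos was compared with that of lineages A and C by ATAC-seq, which marks open DNA by where a transposase can insert. The members are the 9 lineage B ATAC-seq libraries of generations 2 and 6 to 20, set against 10 libraries of lineage A (generations 2 to 20) and 9 of lineage C (generation 8 absent), out of 31 ATAC-seq libraries and 93 libraries in all. The pre-mutation-accumulation generation, generation 0, has 1 library per lineage and served as a check. All animals were untreated N2 hermaphrodites kept at the same temperature on the same food, and RNA-seq and small RNA-seq came from the same lines. The 9 lineage B libraries are successive generations of 1 pedigree, so p-values measure the spread between libraries of 3 pedigrees and not between independent lineages.

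Accessible sites in the C. elegans embryo are mostly promoters and enhancers, short nucleosome-poor stretches at which transcription factors bind. A site that is open in all descendants of a founder and closed in those of another is how a lasting inherited difference in chromatin between lines would appear. The paper reports that most of its heritable chromatin changes were short-lived, with a subset lasting longer. Short-lived changes can be lost in an average over later generations, and their presence in lineage B was not tested. Germline small RNAs of the 22G class, made by RNA-dependent RNA polymerases antisense to genes, are a second carrier of inherited gene regulation in this animal.

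Accessibility was read over 31618 elements of 150 bases on chromosomes I to V and X, as read counts divided by the size factor of each library (normalized counts). Of these, 31498 had a mean of at least 10 normalized counts and were tested, and 120 did not. The last element inside this limit, near gcc-1, averaged 10.0002 normalized counts, with a median of 8.41 in lineage B and 10.1 in lineages A and C. The first one outside, near algn-5, averaged 9.99, with a median of 9.37 in lineage B and 10.03 in lineages A and C.

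No element set lineage B apart in its average over later generations. With generation as a block, 0 of 31498 elements were higher in lineage B (0%) and 0 were lower (0%) at an adjusted p under 0.05 (limma with Benjamini-Hochberg adjustment), and the smallest adjusted p was 0.93. At an unadjusted p under 0.05, 669 elements were higher (2.12%) and 468 were lower (1.49%), 1137 in all (3.61%). On whole reads recovered from the values, edgeR also called 0 elements, with 931 at an unadjusted p under 0.05, and DESeq2 called 0, with 1115. In no element did the 9 lineage B libraries lie all above or all below the other 19.

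The comparison was precise enough to bound the differences. The log2 differences of lineage B from the mean of lineages A and C had a median of -0.0038, had percentiles 5 and 95 at -0.20 and 0.21 and reached -0.74 and 0.73 at the ends. The median standard error was 0.106. The 95% confidence interval lay within 1.25-fold in either direction for 57.3% of elements, within 1.5-fold for 94.6% and within 2-fold for 99.9%. Among the 4471 elements with means of 10 to 50 normalized counts 77.2% were bounded within 1.5-fold, and among the 10464 with means of 100 to 200 this was 99.7%.

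**Figure D1:**
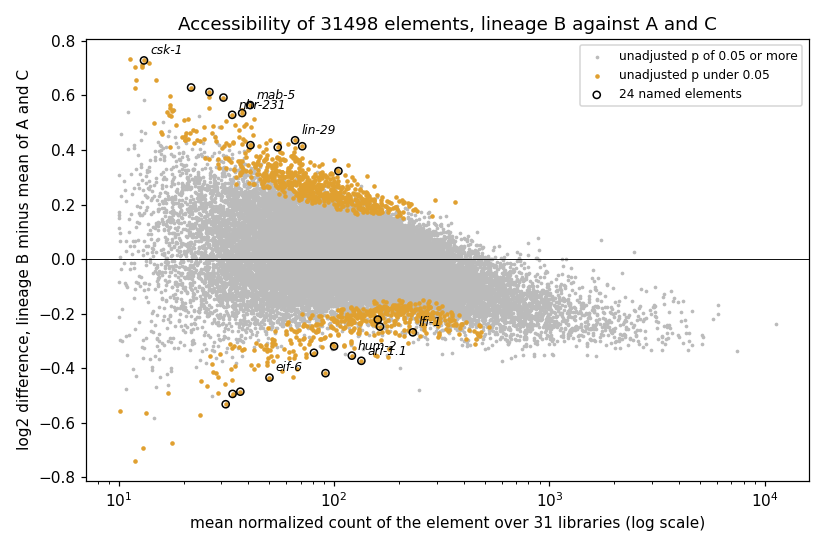
Log2 difference in accessibility, lineage B minus the mean of lineages A and C (vertical axis), against the mean normalized count of each of the 31498 elements (horizontal axis, log scale). Orange points have an unadjusted p under 0.05, and black rings mark the 24 elements named in the text. The cloud narrows with rising count and its strongest elements sit below 0.

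Set against each of the other lineages alone, lineage B was not apart either. In the fit of all 3 lineages, lineage B minus lineage A gave 846 elements at an unadjusted p under 0.05 (2.69%). Lineage B minus lineage C gave 2477 (7.86%), and both gave 0 at an adjusted p under 0.05 in limma. A total of 146 elements (98 higher, 48 lower) had an unadjusted p under 0.05 and the same sign against both. By the same count 195 elements stood apart in lineage A and 930 in lineage C. Lineage B is therefore the lineage with the fewest such elements of the 3, with no test of that order.

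The spread between successive lineage B generations was of the size of that in the other lineages. The median over elements of the SD of log2 values was 0.263 within lineage B (n = 9), 0.269 within lineage A (n = 10) and 0.271 within lineage C (n = 9). Within lineage B the libraries did not share this spread equally. Generation 2 held the highest or lowest of the 9 values at 33.6% of elements and generation 18 at 31.5%, whereas generation 8 did so at 11.4% and generation 16 at 11.8%.

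The libraries also differed in how strongly reads were concentrated in the strongest elements. The 10% of elements with the highest mean count held between 27.1% and 43.3% of reads in later lineage B libraries (median 39.4%), between 25.2% and 42.6% in lineage A (median 39.7%) and between 31.1% and 48.3% in lineage C (median 42.8%). In the same generation lineage B was lower than the mean of the others by 2.02 percentage points on average (SD 5.70, 9 generations, two-sided exact sign-flip permutation test p = 0.34), lower in 6 of 9 generations (in generation 8 the comparison is lineage A alone). In generation 0 the share was 30.1% in lineage B, 39.4% in lineage A and 46.4% in lineage C. Lineage B libraries held between 2995631 and 12251653 reads in elements, against 3447802 to 12140587 in lineage A and 3483604 to 9472742 in lineage C, generation 0 included.

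**Figure D2:**
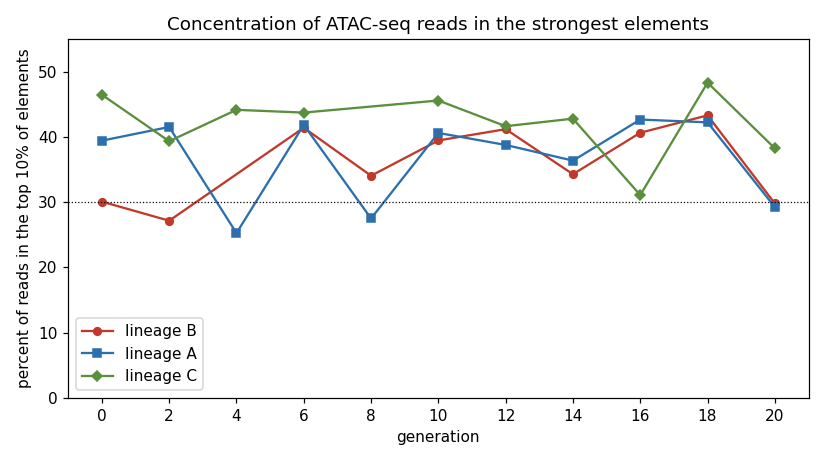
Percent of the reads of each ATAC-seq library in the 10% of elements with the highest mean count (vertical axis) by generation (horizontal axis), with lineage B in red, A in blue and C in green. The dotted line marks 30%, under which 5 later libraries fall. Lineage B runs between 27.1% and 43.3% in later generations.

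The direction of the lineage B differences moved with element strength. In quartile 4 of mean count, the strongest elements, the median difference was -0.08, with 17 elements higher and 151 lower at an unadjusted p under 0.05. In quartile 1, the weakest, it was 0.05, with 287 higher and 78 lower. Taken against single lineages, quartile 4 had a median of -0.01 for lineage B minus lineage A and of -0.14 for lineage B minus lineage C. With the share of reads in the strongest 10% as a covariate, chosen after seeing the data, the medians were -0.0053 in quartile 4 and 0.02 in quartile 1, and after quantile normalization they were -0.0032 and 0.0041. They were -0.06 and 0.06 without the 5 later libraries under 30%, and -0.07 and 0.06 with TMM factors (the trimmed-mean scaling of edgeR).

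The elements nearest to a lineage B difference were chosen after their values were seen: they are the 12 in each direction with the smallest unadjusted p among the 146 above. They are a description of the extremes of 31498 elements, and the adjusted p of each was 0.93. Positions are as the deposited table gives them, on the WBcel235 assembly.

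Among the elements with higher values, the one with the smallest p lay in an intron of mab-5 (chrIII:7780963-7781113), the Hox transcription factor of posterior body patterning, 2416 bases downstream of the nearest transcript start. Its lowest, median and highest normalized counts were 39.2, 51.7 and 72.1 in lineage B, against 20.9, 37.4 and 52.2 in lineage A and 23.7, 33.9 and 45.6 in lineage C. The upper 4 lineage B libraries lay above all others, while the lower ones overlapped lineages A and C. The log2 difference was 0.56 (SE 0.142, 95% confidence interval 0.28 to 0.85). In generation 0 the element had 37.8 normalized counts in lineage B, 38.8 in lineage A and 42.3 in lineage C, so lineage B started as the lowest of the 3. The RNA of mab-5 differed by 0.02 on the log2 scale (limma adjusted p = 0.90).

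An intronic element of lin-29 (chrII:11928044-11928194), a zinc finger factor of the larval-to-adult switch, was also among them. It had 53.4, 71.8 and 123 normalized counts (lowest, median, highest) in lineage B, against 43.1, 56.8 and 74.3 in lineage A and 37.1, 62.8 and 80.4 in lineage C. In lineage B 4 libraries were above all others, and the lowest were within the range of both. The log2 difference was 0.44 (95% confidence interval 0.19 to 0.68), and in generation 0 the values were 80.1 in lineage B, 48.9 in lineage A and 76.7 in lineage C.

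The promoter element of nhr-231 (chrV:18790868-18791018), a nuclear hormone receptor gene, overlaps its exon. It had 30.4, 40.6 and 71.7 normalized counts in lineage B, against 23.4, 33.6 and 52.0 in lineage A and 18.2, 23.8 and 36.6 in lineage C. Here lineage B and lineage A overlapped widely and lineage C was the lowest. The log2 difference of lineage B was 0.37 from lineage A and 0.69 from lineage C.

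The other 9 elements of this direction differed by 0.32 to 0.73 on the log2 scale. The largest, at csk-1 (chrI:72363-72513), a negative regulator of Src family kinases, rests on few reads, with 12.0, 18.2 and 26.8 normalized counts in lineage B, 2.93, 12.5 and 25.9 in lineage A and 3.04, 9.28 and 17.5 in lineage C. Lineage B reached highest and overlapped both. Elements near afd-1, the afadin of cell junctions, rps-6, a small-subunit ribosomal protein, and him-19, a meiosis gene, differed by 0.54, 0.59 and 0.42, and those near Y75B7AR.1, ndnf-1, Y92H12BL.5, ZK1320.2 and F53A10.2 by 0.32, 0.41, 0.63, 0.61 and 0.41. The element near Y75B7AR.1 had the least overlap, with 5 of 9 lineage B libraries above all 19 others. Unlike at mab-5, lineage B was already above both other lineages in generation 0 at each of these 9 elements. The margin was small at afd-1, with 44.5 normalized counts in lineage B, 44.3 in lineage A and 42.3 in lineage C.

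Among the elements with lower values, the one with the smallest p of the 24 lay in an exon of pigo-1 and nearest to the transcript start of ari-1.1 (chrI:6061984-6062134), which encodes an ariadne-type ubiquitin ligase. It had 74.1, 112 and 130 normalized counts in lineage B, against 128, 146 and 159 in lineage A and 114, 154 and 162 in lineage C. Lineage B was below both other lineages in each of the 8 generations with all 3 lineages and below lineage A in generation 8, and 5 of its libraries were below all 19 others. The log2 difference was -0.37 (SE 0.084, 95% confidence interval -0.54 to -0.20). In generation 0 the order was the reverse, with 148.6 normalized counts in lineage B, 138 in lineage A and 139 in lineage C.

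An intronic element of hum-2 (chrV:9395430-9395580), a class V myosin, had 78.3, 103 and 132 normalized counts in lineage B, against 101, 124 and 178 in lineage A and 109, 129 and 159 in lineage C. In lineage B 4 libraries were below all others, and the rest overlapped. The log2 difference was -0.35 (95% confidence interval -0.55 to -0.16), and the generation 0 values were 103.5 in lineage B, 102 in lineage A and 133 in lineage C.

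The element upstream of eif-6 (chrI:12968783-12968933), whose product keeps ribosomal subunits apart, had 27.6, 41.3 and 60.1 normalized counts in lineage B, against 45.7, 53.9 and 91.8 in lineage A and 36.0, 52.7 and 77.3 in lineage C. Most lineage B libraries were below the other medians, and 2 were below all others. The highest lineage A value, of generation 6, lay far from the rest of that lineage. The log2 difference was -0.43, and in generation 0 lineage B had 29.5 normalized counts, against 25.6 in lineage A and 47.3 in lineage C.

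The other 9 elements of this direction differed by -0.53 to -0.22. They lay near atg-2, an autophagy gene (-0.34), ape-1, the worm iASPP (-0.42), atgl-1, a triglyceride lipase (-0.22), and lfi-1 (-0.27), and near F52E1.9, K04G11.3, F22D3.4, F22B5.6 and Y71H2AM.6. In generation 0 lineage B was below both other lineages near atg-2 and F52E1.9. It was above both near ape-1, K04G11.3, F22B5.6 and Y71H2AM.6, and between them near F22D3.4, atgl-1 and lfi-1. The RNA of none of the 24 genes was called in lineage B.

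**Figure D3:**
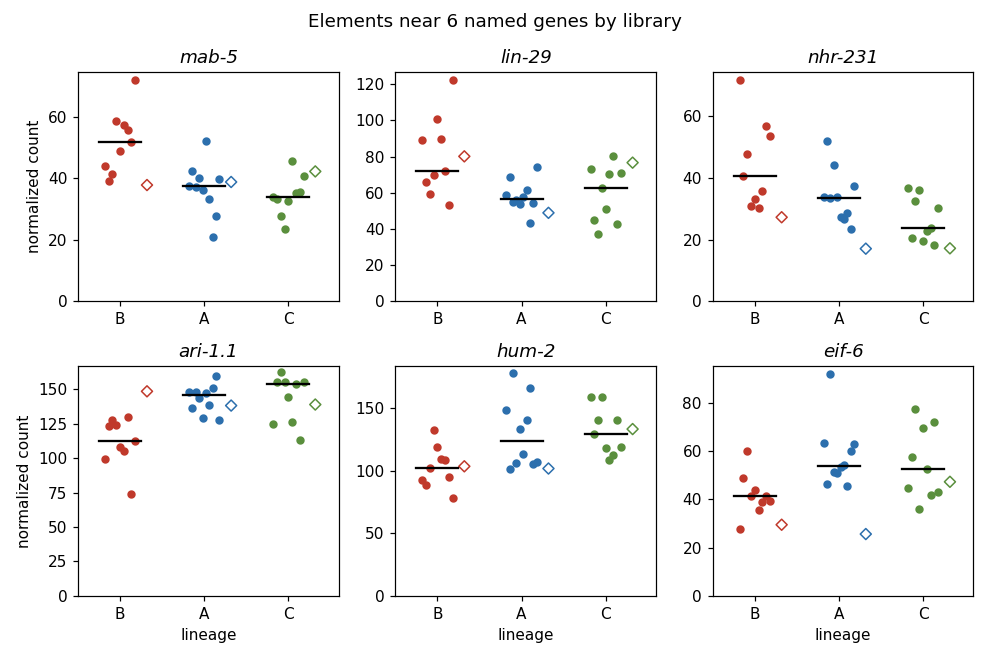
Normalized ATAC-seq counts (vertical axes) of the elements near mab-5, lin-29, nhr-231, ari-1.1, hum-2 and eif-6 in lineage B, A and C (left to right). Dots are libraries of generations 2 to 20 in order, bars are medians and open diamonds are generation 0. Lineage B overlaps lineages A and C in every panel.

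Elements with higher values in later lineage B were more often above both other lineages in generation 0, with no test of that share. Of the 669 elements with higher values, 68.8% were above both other lineages in generation 0, where 39.0% of all elements were. Of the 468 with lower values, 57.7% were below both, where 35.3% of all elements were. The share of reads in the strongest 10% was lowest in lineage B in generation 0. In later generations lineage B was below the mean of the others in 6 of 9. Its later median, 39.4%, was close to that of lineage A (39.7%) and below that of lineage C (42.8%). A part of this read share in the generation 0 result was not tested. With the share of reads in the strongest 10% as a covariate, 418 elements were higher and 364 lower at an unadjusted p under 0.05. The generation 0 shares were then 44.5% for those higher and 31.04% for those lower, the latter under the 35.3% of all elements. In the opposite direction, 33.0% of those higher were below both other lineages in generation 0. Of those lower, 39.0% were above both, more than were below both. Without the 5 later libraries under 30% they were 59.9% and 41.6%.

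The lineage B difference did not change detectably between generations 2 to 10 and generations 12 to 20. In limma 0 elements were called (smallest adjusted p = 0.9999), with 791 at an unadjusted p under 0.05 (2.51%). The interaction of mab-5 was 0.20 and that of ari-1.1 was -0.13 on the log2 scale, with unadjusted p of 0.48 and 0.45 in limma.

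By gene group, in 17 gene lists 0 elements were called (limma), and the counts below are at an unadjusted p under 0.05, beside 3.61% of all elements. Detoxification genes were counted first. Of 84 elements near cytochrome P450 genes 3 were higher and 0 lower (median difference 0.05), of 97 near UDP-glucuronosyltransferase genes 4 were higher and 2 lower (0.03), of 51 near glutathione S-transferase genes 0 passed (0.0071) and of 97 near ABC transporter genes 1 was higher and 1 lower (0.03). The 8 elements near pgp-5, pgp-6, pgp-7 and pgp-8, a cluster of P-glycoprotein transporters on chromosome X, differed by -0.24 to 0.21, and 0 passed.

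Among regulators, 590 elements near nuclear hormone receptor genes gave 11 higher and 10 lower (median -0.01), and 135 near homeobox genes gave 1 higher, at mab-5, and 3 lower (-0.02). Of 85 elements near histone methylation and small RNA inheritance genes 1 was higher and 2 lower (-0.0048). Near histone genes the median was -0.11 over 46 elements, with 0 higher and 2 lower, and it was 0.0015 with the share of reads in the strongest 10% as a covariate, -0.05 after quantile normalization, -0.06 without the 5 libraries under 30% and -0.10 with TMM factors. Near ribosomal protein genes the median was -0.01 over 162 elements, with 1 higher and 2 lower.

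Environment-facing and structural families were counted in the same way. Elements near C-type lectin genes (159) had 3 higher and 2 lower, near F-box genes (266) 7 and 3, near MATH and BATH genes (66) 5 and 2, near cuticle collagen genes (263) 6 and 1, near chemoreceptor genes (317) 9 and 3, near heat shock genes (50) 2 and 1, and near neuropeptide and insulin genes (111) 3 and 0. Among these families the share passing ran between 2.66% for cuticle collagen genes and 10.6% for MATH and BATH genes. Over all the gene lists it ran from 0% for glutathione S-transferase genes to 15.6% for sperm protein genes. No difference between lists was tested. The sperm protein genes had the largest median, 0.11 over 32 elements, with 4 higher and 1 lower. With the covariate their median was 0.06, with 1 higher and 0 lower, and after quantile normalization it was 0.10, with 2 higher and 0 lower. Without the 5 libraries under 30% it was 0.06, with 1 higher and 1 lower. With TMM factors it was 0.12, with 4 higher and 1 lower. Summed RNA of 6 sperm markers was 0.992 to 27.7 normalized counts in lineage B and 2.03 to 20.7 in lineages A and C, so embryos of all lineages carried almost none of it.

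**Figure D4:**
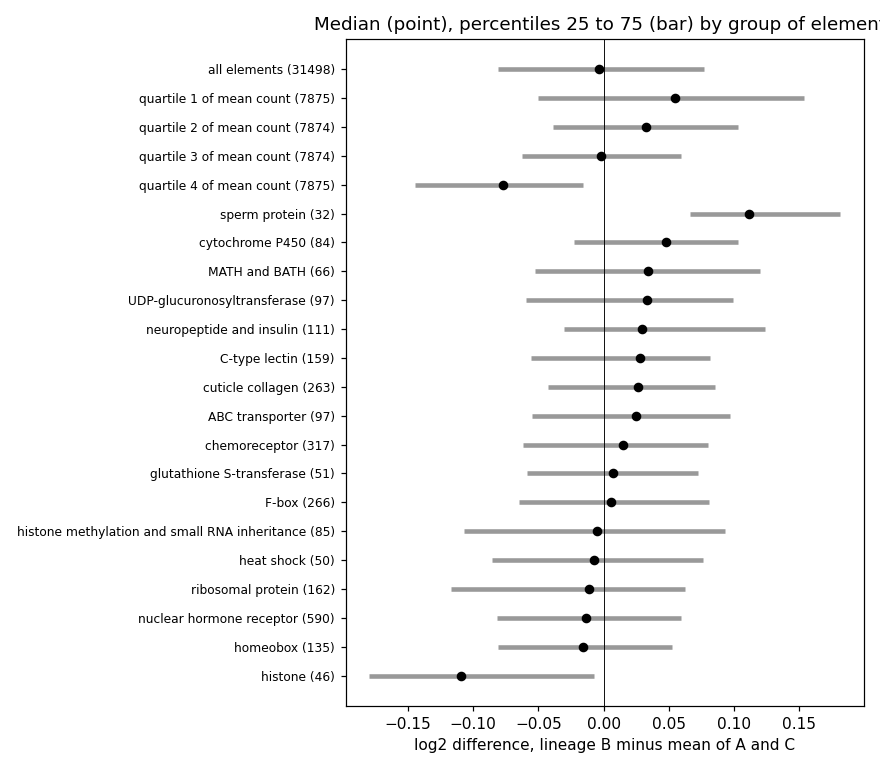
Median (point) and percentiles 25 to 75 (bar) of the log2 difference, lineage B minus the mean of lineages A and C, for all elements, quartiles of mean count and 17 gene lists, with the number of elements in brackets. Medians lie between -0.11 for histone genes and 0.11 for sperm protein genes.

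Markers of cell types were examined as a check of the embryo label and of cell mixture. Of 37 elements near embryonic lineage genes 0 passed an unadjusted p under 0.05 and of 39 near gut markers 0, and over all 10 marker lists 1 element, near a skin marker, passed. The summed RNA of the embryonic markers ranged from 55995 to 80471 normalized counts in lineage B and from 49332 to 71210 in lineages A and C. That of the germline and oocyte markers ranged from 7330 to 10787 in lineage B and from 6881 to 16351 in lineages A and C. In RNA 0 markers were called by limma, and 1855 of 16714 genes (11.1%) had an unadjusted p under 0.05. Among the markers these were 3 of 7 germline and oocyte genes (median log2 difference -0.15) and 3 of 6 muscle genes (-0.07). The rest were 4 of 13 embryonic genes (-0.04), 1 of 6 gut genes (-0.10) and 1 of 3 tested larva or adult cuticle genes (-0.19). In the other lists 0 of 4 pharynx, 0 of 6 skin, 0 of 6 neuron and 0 of 4 tested early embryo maternal genes passed. Of the sperm markers 0 were tested. The embryonic and muscle lists share hlh-1. The part of these genes in the accessibility values was not tested. In bulk embryos, fewer cells of a type and less signal per cell cannot be told apart.

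Position along the chromosomes gave small shifts. On the chromosome arms (18521 elements) the median difference was 0.0047, with 446 higher and 187 lower at an unadjusted p under 0.05 (3.42%). In the centres (12977 elements) it was -0.02, with 223 higher and 281 lower (3.88%), beside 3.61% of all elements. In a fit of lineages B and A alone (1331 elements passing), the arms had 622 higher and 195 lower and the centres 210 and 304. In a fit of lineages B and C alone (1961 passing), the arms had 488 higher and 496 lower and the centres 329 and 648. These are not the fit of all 3 lineages, in which 846 and 2477 passed. In the piRNA clusters of chromosome IV the median difference was 0.0070 over 1250 elements. In 103 windows of 1 Mb with at least 20 elements, window medians ran from -0.04 to 0.07.

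The shares of reads by chromosome were tested over 9 generations by two-sided exact sign-flip permutation tests, adjusted over 6 chromosomes. Chromosome X held 22.6% to 24.3% of reads in lineage B, against 22.4% to 25.1% in lineage A and 22.9% to 24.97% in lineage C. Lineage B was lower than the mean of the others by 0.366 percentage points (SD 0.717), lower in 7 of 9 generations (exact p = 0.17, adjusted p = 0.52). On chromosome IV it was higher by 0.140 points (SD 0.232), in 7 of 9 generations (exact p = 0.098, adjusted p = 0.52). The other 4 chromosomes differed by -0.044 to 0.195 points, with adjusted p between 0.54 and 0.67 in the exact tests.

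Genes whose RNA or 22G-RNAs were called in lineage B were then looked up in the chromatin data. In RNA-seq, 4 of 16714 genes were higher in lineage B (0.0239%) and 3 were lower (0.0179%) by limma, and 0 of these 7 were called against both other lineages. Of the 7, F07B7.2 and W09B7.2 have identical values and cannot be told apart. In all, 4 of the 7 genes had elements, 5 in all, of which 0 passed an unadjusted p under 0.05. For nyn-1, whose RNA was higher by 0.83, the element differed by -0.18 (95% confidence interval -0.85 to 0.48).

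In small RNA-seq, 96 of 6180 genes had more antisense 22G-RNAs in lineage B (1.55%) and 34 had fewer (0.55%) by limma. Of these, 19 and 6 were called against both other lineages, while 91 of the other 105 were called against lineage C only and 13 against lineage A only. T28D6.4 had 149, 359 and 443 normalized 22G-RNA counts (lowest, median, highest) in lineage B, against 13.7, 36.1 and 133 in lineage A and 14.4, 39.8 and 56.5 in lineage C. Every lineage B library was above all others, although lineage B had 106 in generation 0, against 110 in lineage A and 66.8 in lineage C. The log2 difference was 3.17 (SE 0.221, limma adjusted p = 1.89e-09).

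The chromatin near T28D6.4 was not called. Its nearest element had 161, 189 and 210 normalized counts in lineage B and 125, 207 and 265 in lineages A and C. The lineage B values lay inside the range of the others, and the log2 difference was -0.10 (95% confidence interval -0.27 to 0.07). For pyk-1, a pyruvate kinase gene whose 22G-RNAs were higher by 2.33, the nearest of 7 elements differed by 0.27 (95% confidence interval -0.26 to 0.79). The 7 elements ran from -0.17 to 0.27, so the nearest was the highest. For gpx-4, a glutathione peroxidase gene whose 22G-RNAs were lower (-1.50), the only element differed by 0.22 (-0.03 to 0.47).

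Over the genes with more 22G-RNAs, 69 of 96 had elements, 203 in all, of which 0 were called and 4 were higher and 2 lower at an unadjusted p under 0.05 (2.96%). Their median accessibility difference was 0.00048, against -0.0038 over all elements, and 96.6% of them were bounded within 1.5-fold. Over the genes with fewer 22G-RNAs, 22 of 34 had elements, 79 in all, of which 3 were higher and 0 lower (3.8%), with a median of -0.01.

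**Figure D5:**
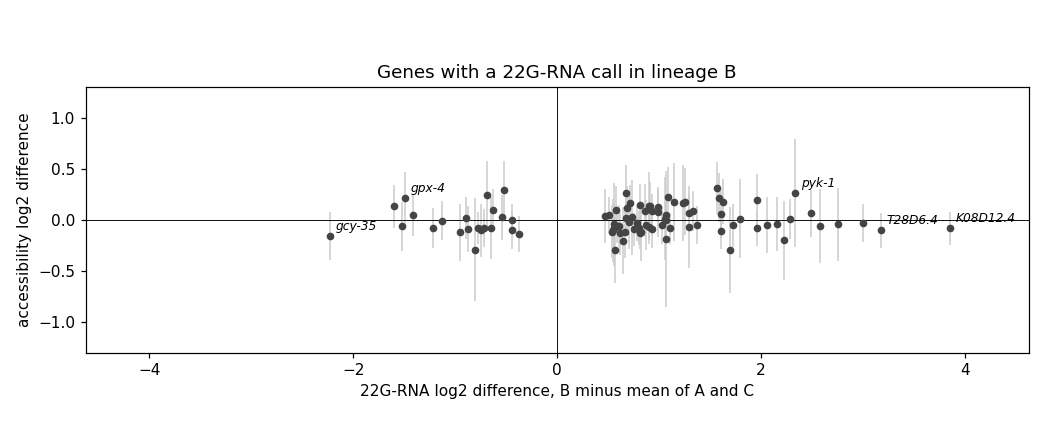
Log2 difference in 22G-RNAs (horizontal axis) and in accessibility of the element nearest to the transcript start (vertical axis, bars are 95% confidence intervals), lineage B minus the mean of lineages A and C, for the 91 genes with a 22G-RNA call and an element. 22G-RNA differences reach 3.85 while accessibility differences stay near 0.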

How the data were processed

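The deposited signal is a count of reads over each element or gene, scaled by the authors with DESeq2 size factors, after alignment to WS252 with Bowtie2 and counting with BEDTools (22G-RNAs: Bowtie, ce11, antisense to coding genes). Versions are not given in the sources used here. In the ATAC-seq and RNA-seq tables a value of exactly 1 stands for no reads. Whole reads were recovered in all 93 libraries within 0.001 read.

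Elements and genes with a mean of at least 10 were tested by limma 3.58.1 (trend, robust) on log2(normalized count + 1), contrast lineage B minus the mean of A and C, generation as a factor, since the lineages were kept side by side and handled at shared times. Deviations of same-generation libraries correlated by -0.396 to 0.604 (17 of 26 pairs over 0.1), and 7 of 28 libraries matched their own generation best. The fit was tested on simulated data. Elements took the coding gene with the nearest transcript start (Ensembl release 115). R 4.3.3, edgeR 4.0.16, DESeq2 1.42.0, Python 3.11.15, numpy 2.4.6, pandas 2.3.3, scipy 1.17.1 and matplotlib were used. The members, lists and named elements were chosen with earlier results of these data known. The rule for named elements, the 12 with the largest difference each way among elements called against both lineages, returned 0 elements, so the 12 with the smallest unadjusted p each way were taken in its place. No genome sequence was used.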

Additional observations from a re-analysis of the deposited data

Results flagged for a closer look

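In 96 groups of values (24 named elements and 8 library measures in each lineage), 3 held a library far from the rest, where chance gives about 1 in 20 groups. None was a lineage B library. The element near ndnf-1 had 38.6 normalized counts in lineage C generation 6, against 56.4 in the nearest library. The element near eif-6 had 91.8 in lineage A generation 6, against 63.5 in the nearest. The element near F22D3.4 had 162 in lineage C generation 18, against 121 in the nearest.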

How the results depend on the processing

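All 29 alternatives gave 0 elements higher and 0 lower in lineage B, with the smallest adjusted p, 0.52, in DESeq2. One of them set a minimum absolute log2 difference of 0.5 on the main fit and could only give 0. No replicate block gave 0 and 0 with 863 at an unadjusted p under 0.05. Leaving out single lineage B libraries gave 0 to 0 called, with 757 to 1583 at an unadjusted p under 0.05 (757 without generation 2). Generations sampled in all 3 lineages gave 1959 such elements, lineage C alone as the comparison 1961 and generations 12 to 20 alone 634, against 1137. None of the 24 named elements changed sign or was called in 661 refits. They were chosen for small p and the same sign against both lineages in these libraries, so their kept signs follow largely from that choice. Without the replicate block RNA gave 1 gene higher in place of 4, and without the shallowest small RNA library 59 genes had fewer 22G-RNAs in place of 34 (the cause was not tested). The generation 0 shares moved to 44.5% and 31.04% with the strongest 10% of elements as a covariate and to 59.9% and 41.6% without 5 libraries under 30%, both chosen after seeing the data. The GC alternative was not run, as no genome sequence was used. By nearest gene body, 4541 elements took another gene.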
